A study of Homo sapiens with 4 samples.

Results

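Interferon-stimulated genes and genes of the interferon regulatory factor (IRF) family were followed as a set of 45 gene symbols, chosen by name, among the 23287 symbols in the deposited RNA-seq tables of T47D cells. All 45 symbols were found, with 89 transcripts in total. T47D is an established line of human breast cancer cells with abundant progesterone receptor (PR), and R5020 is a synthetic progestin. RNA was sequenced from cells given 10 nM R5020 for 3 h and from cells given the vehicle, ethanol (EtOH), for 3 h, in both cases after culture in charcoal-stripped serum, and PR-bound DNA was sequenced after 10 nM R5020 for 1 h. There was 1 library per condition, so no difference below has a replicate check, no p-value is given and every comparison is between these libraries.

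Interferons bind receptors on the cell surface, the receptor-associated kinases of the JAK family phosphorylate STAT proteins, and a complex that holds STAT2 and IRF9 binds the interferon-stimulated response element (ISRE) in the promoters of its target genes. STAT dimers bind another element, the gamma-activated sequence (GAS). The induced genes encode sensors of foreign nucleic acids, enzymes that degrade or modify RNA, proteins that block viral entry or release and the ubiquitin-like modifier ISG15 with its ligases and proteases. Ligand-bound PR acts as a transcription factor through the progesterone response element (PRE) and has been described as a repressor of interferon-stimulated genes in some breast cancer cells.

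Expression is given as FPKM, fragments scaled to transcript length and library size, summed over the transcripts of a gene. A change is log2((FPKM in R5020 + 1)/(FPKM in EtOH + 1)), which understates the change of genes with a low FPKM. The filter kept a gene whose FPKM reached 1 in either library, called retained here, and 1.5-fold on this scale was the threshold. With coverage turned into equivalent reads of 50 nt, the values summed to 36203604 (R5020) and 35151493 (EtOH) reads. These sums are not the sequenced depth, and the order of the libraries was the reverse in the median of reads per FPKM. Over transcripts at 1 or more in both libraries the median was 94.0 equivalent reads per FPKM and kilobase in EtOH and 90.7 in R5020. As a check of the treatment, *FKBP5*, a known progestin target, stood at 15.9 in EtOH and 86.6 in R5020. Of the 8 luminal markers, *KRT19* (608 in EtOH, 477 in R5020) and *EPCAM* (62.3, 55.6) were abundant, while *KRT8* and *KRT18* had a failed estimate in EtOH and were not used. The other 4 luminal markers were retained and were at least 1.5-fold lower in R5020. The 5 leukocyte markers together reached 0.174 in EtOH and 0.109 in R5020. Of the markers of plasmacytoid dendritic cells, *CLEC4C* was listed at 0 in both, and *IL3RA* was at 0.355 and 0.337. The fibroblast marker *COL1A1* was at 5.12 and 3.31, with *COL3A1* listed at 0, and the basal and endothelial markers were all under 1.

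Most of the set was weakly expressed, and 3 of its genes were higher in R5020 past the threshold. Of the 45 members 24 were retained and 21 lay under the filter. Among the retained members *SP110*, *HERC5* and *TRIM22* were at least 1.5-fold higher in R5020, 0 were at least 1.5-fold lower and 21 stayed within 1.5-fold. The background over all 11018 retained genes was 7.67% higher and 4.14% lower by the same rule. The median log2 ratio was 0.06 for the 24 retained members and 0.01 for all retained genes. It was above 0 in 15 of the 24 members, that is 62.5%, beside 50.9% of all retained genes. These counts rest on how members passed the filter. Of the 24, 16 had an FPKM of 1 or more in both libraries, 5 passed only through R5020 (*HERC5*, *TRIM22*, *HERC6*, *IFIT5* and *IFITM1*) and 3 only through EtOH (*IFIH1*, *IFITM3* and *IRF3*), and such genes had to differ between the libraries. Among the 16 genes at 1 or more in both, *SP110* alone passed the threshold. The share of all genes past it under this stricter filter was not computed. In RNA from a whole culture, fewer expressing cells and less RNA per cell cannot be told apart.

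**Figure D1:**
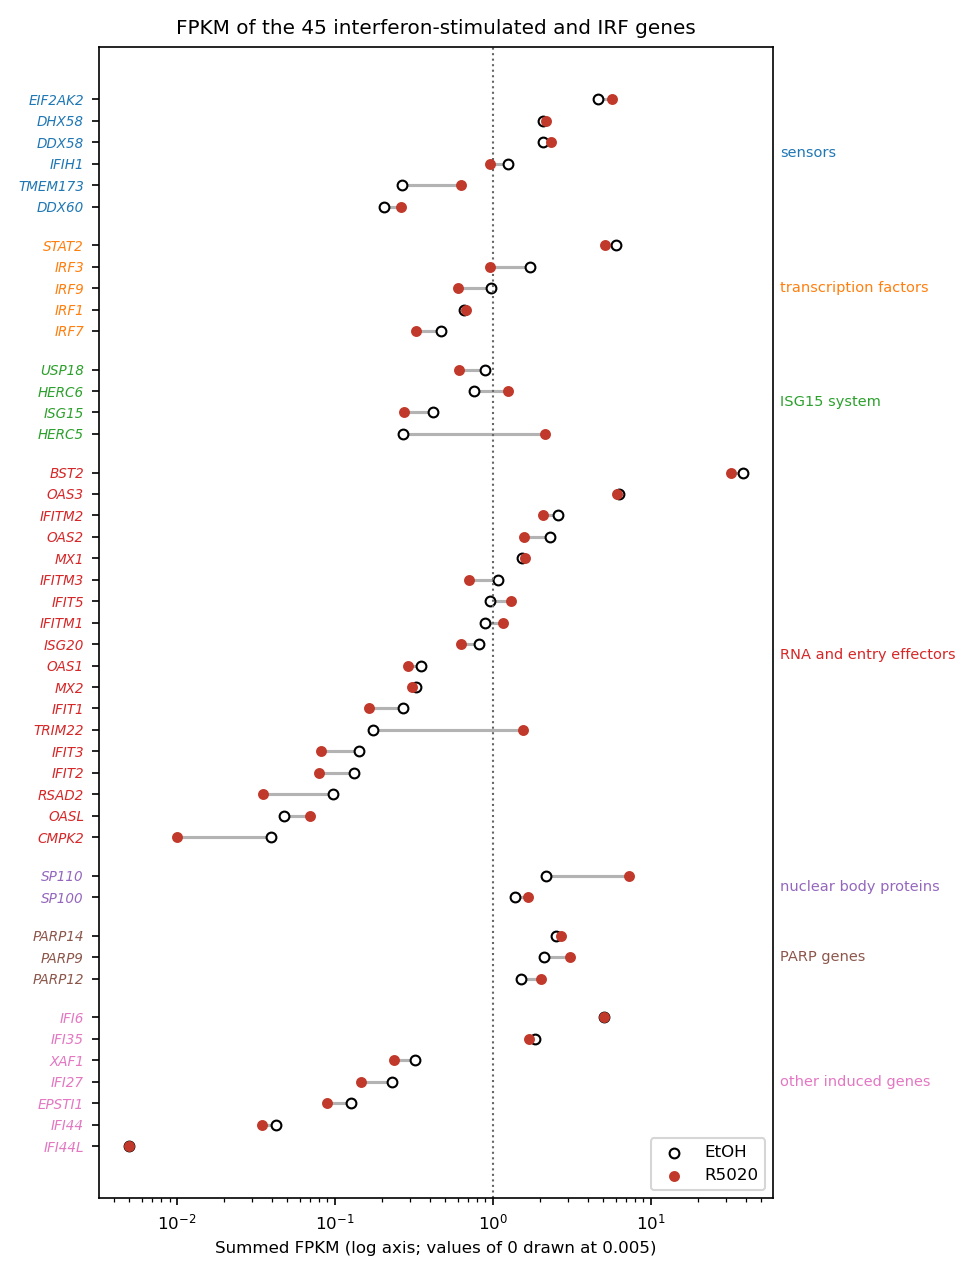
Summed FPKM of each of the 45 members on a log axis in EtOH (open circles) and R5020 (filled circles), 1 library each, grouped by role, with a dotted line at the filter of 1 FPKM. The longest horizontal steps to the right among members that end above 1 are those of *HERC5*, *TRIM22* and *SP110*, and *BST2* stands alone at 38.3 and 32.3.

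*SP110* encodes a nuclear body protein that is induced by interferon. Its FPKM was 2.17 in EtOH and 7.27 in R5020, which corresponded to 439 and 1393 equivalent reads. The log2 ratio of 1.38 was the highest of the set, and 98.2% of all retained genes lay below it. The gene lies at chr2:231033645-231090444 in hg19 on the minus strand. The difference sat mainly in transcript NM_004510, at 1.55 in EtOH and 6.30 in R5020, whereas NM_080424 was at 0.624 and 0.970. The share of NM_004510 in the summed FPKM was 71.3% in EtOH and 86.7% in R5020. Both transcripts share a start, so the split between them rests on the estimate by Cufflinks. The related *SP100*, the founding component of the same nuclear bodies, was at 1.39 and 1.67, a log2 ratio of 0.16.

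*HERC5* encodes the main ligase that attaches ISG15 to newly made proteins. It was nearly silent in EtOH, with an FPKM of 0.269 from 84 equivalent reads, and reached 2.14 from 675 equivalent reads in R5020. Its log2 ratio was 1.31, and without a pseudocount the FPKM was 7.93-fold higher. It has a single annotated transcript, at chr4:89378268-89427314 on the plus strand of hg19.

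*TRIM22* encodes an E3 ubiquitin ligase of the tripartite motif family with antiviral activity. Its FPKM was 0.174 in EtOH and 1.56 in R5020, from 47.7 and 431 equivalent reads, with a log2 ratio of 1.12 and an 8.92-fold higher FPKM without a pseudocount. Of its 2 transcripts, NM_006074 was listed at 0 in EtOH and stood at 1.34 in R5020, and NM_001199573 was at 0.174 and 0.221. Both share a start and the same extent, chr11:5710817-5732093 in hg19, so the split between them rests on the estimate by Cufflinks while the sum does not.

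**Figure D2:**
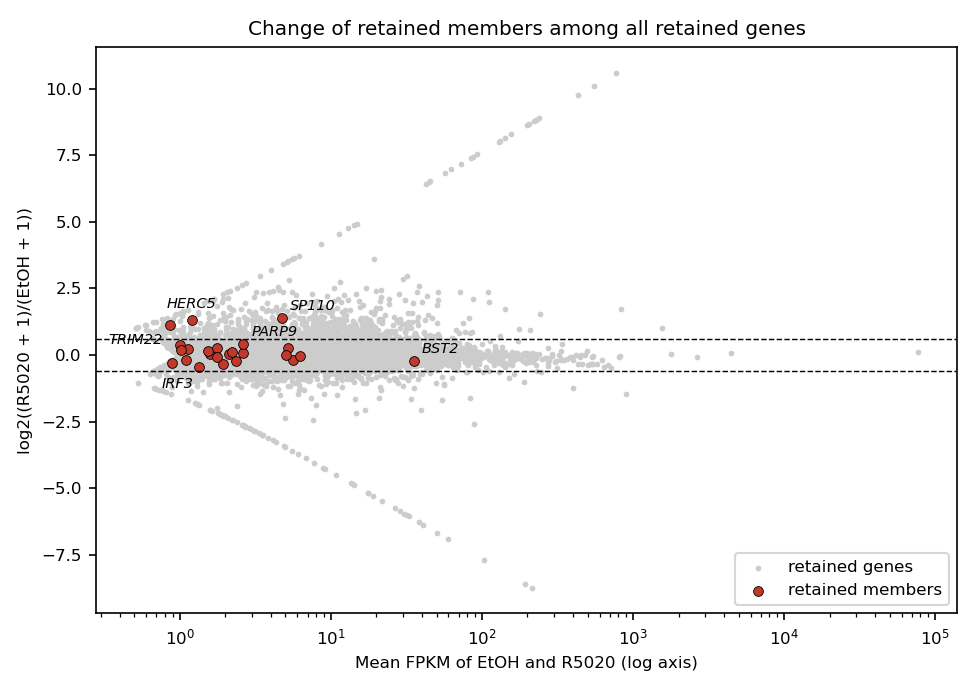
Log2 ratio of R5020 to EtOH against the mean FPKM (log axis) for all 11018 retained genes (grey) and the 24 retained members (red), with dashed lines at 1.5-fold. The 3 members above the upper line are labelled, and the straight grey arms are genes at or near 0 in 1 of the libraries.

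The other members of the ISG15 system did not pass the threshold. *ISG15* itself was at 0.419 in EtOH and 0.275 in R5020, under the filter. *USP18*, the protease that removes ISG15 and also restrains the type I receptor, was at 0.897 and 0.615. *HERC6*, the neighbour of *HERC5*, was at 0.758 and 1.25, a log2 ratio of 0.36. Outside the set, *UBE2L6*, which encodes the conjugating enzyme of ISG15, was at 10.7 and 9.18, and *UBA7*, the activating enzyme, at 0.255 and 0.257. *HERC5* was the only one of these 6 past the threshold, but with the pseudocount *ISG15* and *UBA7* could not have passed it downwards. Without a pseudocount *HERC6* was 1.65-fold higher in R5020, and *ISG15* was at 0.657 of its value in EtOH.

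Among the transcription factors, 2 of 5 members were retained and both were lower in R5020 without passing the threshold. *STAT2*, which acts together with IRF9, was at 6.04 in EtOH and 5.13 in R5020 (log2 ratio −0.20). *IRF3*, which is activated downstream of the nucleic acid sensors, was at 1.71 and 0.963, the lowest log2 ratio of the retained members at −0.47. Without a pseudocount *IRF3* was at 0.562 of its value in EtOH, which is past 1.5-fold on that scale. The difference in *IRF3* came from a single transcript, NM_001197122, which was at 0.769 in EtOH and listed at 0 in R5020, while NM_001571 was at 0.944 and 0.963. All 9 *IRF3* transcripts share 1 start, and how Cufflinks divided the reads between them was not tested. *IRF9* was at 0.970 and 0.606, *IRF7* at 0.468 and 0.326, and *IRF1* at 0.655 and 0.683, all under the filter.

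IRF genes outside the set were also within 1.5-fold or under the filter. *IRF2*, which competes with *IRF1* for its elements, was at 4.21 in EtOH and 3.06 in R5020 (log2 ratio −0.36). *IRF5* was at 0.690 and 0.411, *IRF4* was listed at 0 in EtOH and at 0.004 in R5020, and *IRF8* was listed at 0 in both, the latter being IRFs of lymphoid and myeloid cells.

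The sensors stayed within 1.5-fold. *EIF2AK2*, the RNA-activated kinase PKR, was the highest at 4.65 in EtOH and 5.70 in R5020 (log2 ratio 0.25). The helicases *DDX58* (RIG-I) and *DHX58* (LGP2) stood at 2.07 and 2.34 and at 2.08 and 2.18, respectively, and *IFIH1* (MDA5) at 1.25 and 0.959. None of the 4 retained sensors moved by as much as *TMEM173* did, the gene of the adaptor STING, which lay under the filter at 0.267 and 0.626 with a log2 ratio of 0.36. Without a pseudocount the *TMEM173* value was 2.35-fold higher in R5020, from 52.4 and 122 equivalent reads. *DDX60* was at 0.205 and 0.264.

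The RNA and entry effectors form the largest role, with 18 members of which 9 were retained. *BST2*, which encodes tetherin and holds budding virions at the cell surface, was by far the most abundant member at 38.3 in EtOH and 32.3 in R5020 (log2 ratio −0.24). *OAS3* and *OAS2*, which make the activator of the nuclease RNase L, differed from each other. *OAS3* was at 6.31 and 6.13 (−0.04), whereas *OAS2* was at 2.30 and 1.57 (−0.36), and all 3 of its transcripts were lower in R5020. *MX1*, a GTPase that traps viral nucleocapsids, was at 1.54 and 1.61. *IFIT5*, which binds RNA, was at 0.967 and 1.31 (0.23), in contrast to the members of its family under the filter, *IFIT1* (0.272, 0.165), *IFIT2* (0.132, 0.080) and *IFIT3* (0.143, 0.082). The *IFITM* genes, whose products block viral fusion, did not share a direction. *IFITM2* was at 2.59 and 2.08, *IFITM3* at 1.08 and 0.707, and *IFITM1* at 0.893 and 1.16. Without a pseudocount *IFITM3* was at 0.657 of its value in EtOH, just past 1.5-fold on that scale. The *IFITM* genes are close copies of each other and reads with several positions were discarded by the authors, so their levels are uncertain.

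**Figure D3:**
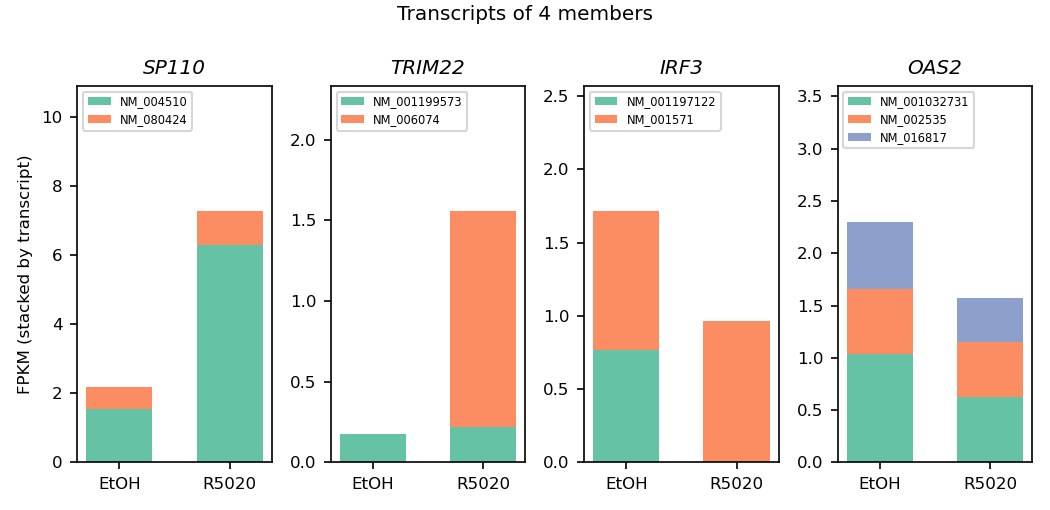
FPKM by transcript, stacked, in EtOH and R5020 for *SP110*, *TRIM22*, *IRF3* and *OAS2* (1 library per bar, transcripts at 0 in both left out, each panel with its own scale from 0). In *SP110* and *TRIM22* a single transcript makes up most of the R5020 bar, in *IRF3* a transcript present in EtOH is at 0 in R5020, and in *OAS2* all 3 transcripts are lower in R5020.

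The PARP genes of the set all had log2 ratios above 0, as did 50.9% of all retained genes, and none passed the threshold. *PARP9*, which with its partner DTX3L ubiquitinates histones, was at 2.11 in EtOH and 3.11 in R5020 (log2 ratio 0.40), *PARP12* at 1.504 and 2.02 (0.27) and *PARP14* at 2.53 and 2.70 (0.07). Outside the set, *PARP1* (0.11), *PARP10* (0.04) and *PARP16* (0.12) also had log2 ratios above 0, and *PARP2* (−0.09), *PARP3* (−0.17), *PARP4* (−0.04) and *PARP6* (−0.11) below it. Of the remaining induced genes only *IFI6* (5.04, 5.10) and *IFI35* (1.85, 1.69) were retained. *IFI44L* was listed at 0 in both libraries.

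Of the 21 members under the filter, *IFI44L* was listed at 0 in both libraries. The highest FPKM of each of the other 20 lay between 0.040 and 0.970. Of the 20 above 0, 16 were lower in R5020 and 4 higher (*OASL*, *DDX60*, *IRF1* and *TMEM173*), beside 55.9% lower among the 6128 genes under the filter and above 0. Their median fold without a pseudocount was 0.701, against 0.908 over the 4793 of those genes that were above 0 in both libraries. The values behind it were small, with a median of 46.2 equivalent reads in EtOH and 32.9 in R5020. None of the 21 passed 1.5-fold with the pseudocount. On that scale the weakest of them could not have passed it even with a fall to 0, so this count does not describe their change. The retained members were also of low FPKM, with a median of 1.96 in EtOH against 5.09 for all retained genes. Within the 5302 retained genes of a mean FPKM under 5, where 6.56% were higher and 4.62% lower by the same rule, the median log2 ratio of the 19 members was 0.12 and that of the genes −0.02. The 5th and 95th percentiles of the log2 ratio of these genes were −0.56 and 0.69. *SP110*, *HERC5* and *TRIM22* lay above this range, but they were named for passing the threshold on the same values. *HERC5* and *TRIM22* passed the filter only through R5020. The 19 members include those that passed it through 1 library only, more of them through R5020, so their median rests on this too. The summed FPKM of all members was 96.4 in EtOH and 98.2 in R5020. Without *BST2* it was 58.1 and 65.9, and without *BST2*, *SP110*, *HERC5* and *TRIM22* it was 55.5 and 55.0.

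The pathway around the set was described with a further 91 genes, of which 48 were retained, 1 passed the threshold upwards and 2 downwards, beside the 7.67% and 4.14% of all retained genes. Of 10 genes of interferon ligands 8 were listed at 0 in both libraries. *IFNB1* was at 0.027 in EtOH and listed at 0 in R5020, and *IL28A* was listed at 0 in EtOH and at 0.067 in R5020. The receptor subunits were present, with *IFNAR1* at 8.84 and 9.13, *IFNAR2* at 0.879 and 0.645 and *IFNGR1* at 3.38 and 4.83.

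The single pathway gene past the threshold upwards was a kinase. *JAK2*, the kinase of the interferon gamma receptor and of many cytokine receptors, was at 0.895 in EtOH and 3.48 in R5020, a log2 ratio of 1.24. *JAK1* (15.9, 22.8) and *STAT3* (21.2, 29.6) had log2 ratios of 0.50 and 0.47, just within the threshold, whereas *TYK2* was at 2.32 and 1.99 (−0.15). Lower past the threshold were *TNFSF10*, the gene of the death ligand TRAIL, at 4.29 and 1.86 (−0.89), and *IRF2BPL*, named for its likeness to a partner of IRF2, at 6.75 and 3.25 (−0.87). The interferon-induced chemokine genes *CXCL9* and *CXCL10* were listed at 0 in both libraries, and *GBP1* was at 0.124 and 0.051.

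The promoters of the members carried the letters of the ISRE far more often than promoters in general. In the RefSeq promoter table, on build GRCh38.p14, a promoter runs from 250 bases before to 50 bases after the gene start, and 34 of the 45 members had an entry. Not among them were *IFIT2*, *IFITM2*, *MX2*, *OAS2*, *OASL*, *USP18*, *IRF3*, *IRF7*, *DHX58*, *TRIM22* and *TMEM173*. The ISRE core GAAANNGAAA, searched on both strands with overlaps counted, was found in 21 of the 34 (61.8%), beside 3.65% of all 27305 promoters of this length. GAS letters (TTCNNNGAA, which reads the same on both strands) were found in 10 of the 34 (29.4%), beside 7.88% of all promoters. PRE letters (GNACANNNTGTNC, likewise) were found in 0 of the 34 and in 0.388% of all promoters. A match is a description of the letters and not of a bound site. Since many of these genes are known by their induction through the ISRE, the share describes the choice of the set as well.

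The stretches before the start with the ISRE letters are given for *HERC5*, which passed the threshold, and for 4 well-known targets that did not. Matches are in capitals on the strand of the gene, the core on the other strand being read in reverse.
*HERC5*, chr4:88456974-88457074, plus strand: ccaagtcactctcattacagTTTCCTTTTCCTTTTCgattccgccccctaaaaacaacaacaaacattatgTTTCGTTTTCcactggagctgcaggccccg
*ISG15*, chr1:1013364-1013419, plus strand: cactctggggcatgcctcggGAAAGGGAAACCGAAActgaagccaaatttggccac
*BST2*, chr19:17405725-17405780, minus strand: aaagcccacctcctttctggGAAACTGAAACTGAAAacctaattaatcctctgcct
*IFI6*, chr1:27672256-27672368, minus strand: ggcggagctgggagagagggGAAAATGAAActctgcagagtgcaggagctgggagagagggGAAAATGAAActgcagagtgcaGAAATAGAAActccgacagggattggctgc
*IFIT1*, chr10:89392487-89392549, plus strand: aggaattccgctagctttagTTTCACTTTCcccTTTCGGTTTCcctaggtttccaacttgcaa
*HERC5* held 3 matches, the first bases of which lay at −125, −119 and −74 from the start, and the first pair overlapped. *IFI6* also held 3, *ISG15*, *BST2* and *IFIT1* 2 each, and none of these 4 genes passed the threshold. *ISG15* and *IFIT1* lay under the filter, and with the pseudocount neither could have passed it downwards. Without a pseudocount they were at 0.657 and 0.606 of their values in EtOH. The window of *SP110* is not at the start in use. Matched to GRCh37, the assembly of hg19, it lay near the start of NM_001185015, which was listed at 0 in both libraries, and 5.52 kb from the nearest start of a transcript above 0, so the promoter of the transcripts that were higher was not read. Of the 33 windows whose gene had a transcript above 0, 30 lay within 500 bases of the start of such a transcript, 19 of them with the ISRE core, and those of *SP110*, *RSAD2* and *PARP12* did not. The ISRE core was in 12 of the 19 retained members with an entry, and their log2 ratios lay on both sides of 0.

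**Figure D4:**
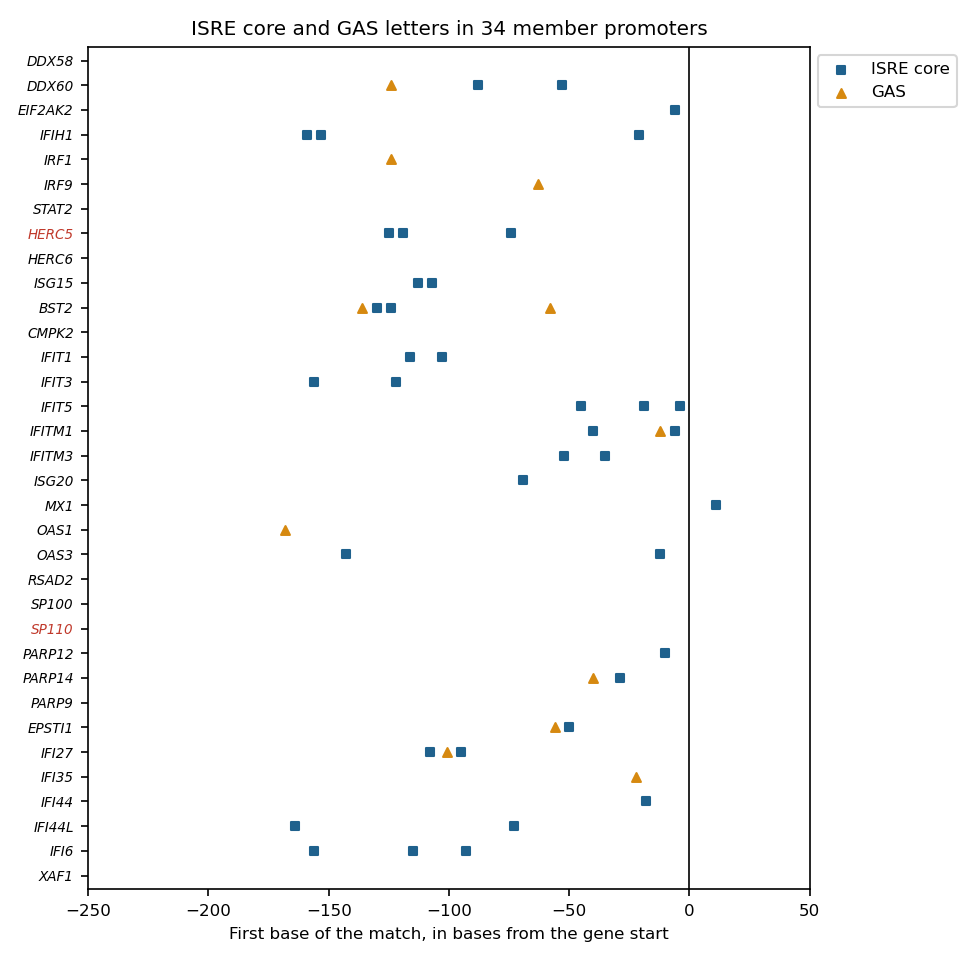
Position of the first base of each ISRE core (squares) and GAS (triangles) match in the 34 member promoters, in bases from the gene start (vertical line), ordered by role. Gene names in red passed the threshold, of which *HERC5* has 3 ISRE matches, and the *SP110* window lies 5.52 kb from the start of its expressed transcripts.

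The share of members with a PR binding site nearby was close to that of all gene symbols. A gene was tied to a site when the nearest edge lay within 50 kb of its transcripts. Of the 45 members 19 had such a site, 42.2% with a Wilson 95% interval of 29.0 to 56.7%, beside 45.6% of all gene symbols. Of the 24 retained members 10 had one (41.7%), beside 52.7% of all retained genes and 61.4% of those at least 1.5-fold higher. The median distance to the nearest site was 57.7 kb for the members and 64.7 kb for all symbols, with median gene lengths of 18.7 and 18.1 kb. Within 100 kb, 28 members (62.2%) had a site, beside 57.1% of all symbols. The interval covers counting error only and treats genes as independent, although 5 of the sites were shared by neighbouring members. Just inside the limit was *STAT2* at 49.9 kb and just outside it *IFIT2* at 50.04 kb.

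None of the 3 members past the threshold had a PR binding site within 50 kb. The nearest one lay 136 kb from *HERC5*, 247 kb from *SP110* and 1138 kb from *TRIM22*. The 10 retained members with a site had log2 ratios between −0.47 and 0.40 with a median of −0.12, and the 14 without one between −0.24 and 1.38 with a median of 0.14. Members that passed the filter through 1 library only lay in both groups. With a site these were *IFIT5* and *IFITM1* (through R5020) and *IFITM3* and *IRF3* (through EtOH). Without a site they were *HERC5*, *TRIM22* and *HERC6* (through R5020) and *IFIH1* (through EtOH). Over all retained genes the median was −0.01 with a site and 0.02 without. At least 1.5-fold higher were 8.94% of those with a site and 6.25% of those without.

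**Figure D5:**
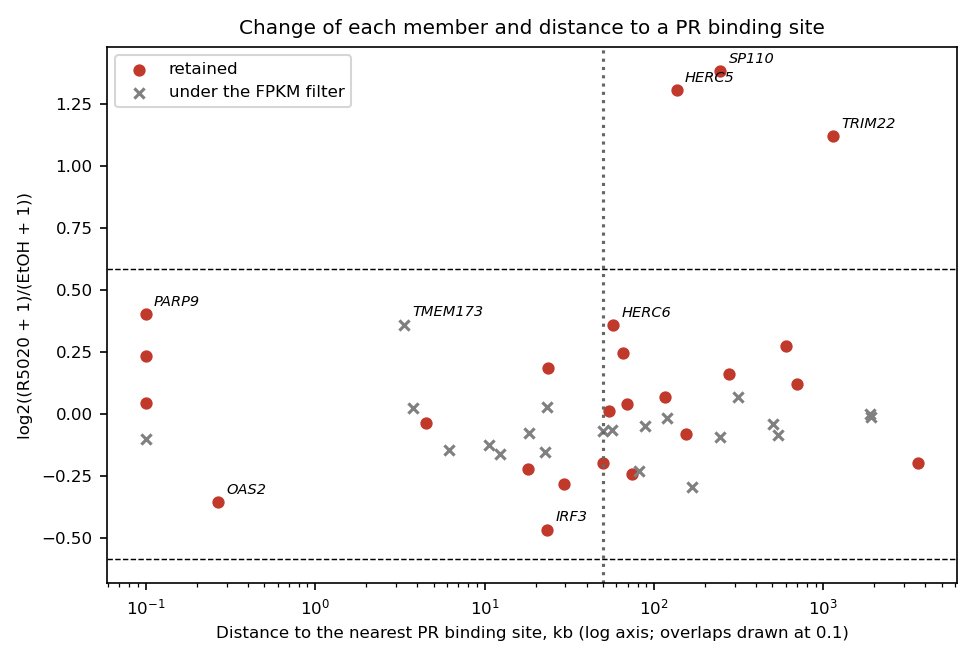
Log2 ratio of each of the 45 members against the distance from its transcripts to the nearest PR binding site in kb (log axis, overlaps drawn at 0.1), with a dotted line at 50 kb and dashed lines at 1.5-fold. The 3 members above the upper line all lie to the right of 50 kb.

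The 34 sites near members had a median score close to that of all sites. The score deposited for a site is −10 times the log10 of its p-value, and ranged from 50.1 to 178 for the 34 with a median of 71.5, beside 74.5 for all 11181 sites. Of the 34, 3 scored 100 or more, near *ISG15* and *PARP9*, beside 1824 of all sites (16.3%). The midpoint fell in an intron for 14, between genes for 9 and in a coding exon for 8, and these shares were not computed for all sites. *ISG15* had 8 sites within 50 kb, the nearest at 22.6 kb, in and around *PLEKHN1*, *PERM1* and *AGRN*. *DHX58* had 6, *IFIT1* and *TMEM173* 3 each, and the other members with sites 1 or 2.

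In 4 members (8.89%) a site overlapped the transcribed extent, beside 17.9% of all gene symbols and 22.5% of retained genes. The site at *PARP9*, chr3:122283086-122283525 with a score of 83.2, covered the start that it shares head to head with *DTX3L*. A further site, 13.1 kb downstream in *KPNA1*, scored 103. At *IFIT5* a site with a score of 67.6, chr10:91174396-91175144, began 0.071 kb after the start, and at *IFI27* a site with a score of 74.5 lay within the gene. *DHX58* held an intronic site of score 56.9. Closest of the sites outside genes was that 0.267 kb before the start of *OAS2*, score 82.1, which lay 4.50 kb beyond the end of *OAS3*. *TMEM173* had a site 3.34 kb upstream with a score of 75.4, and *IRF1* and *IRF7* had sites 3.79 and 6.20 kb beyond the end of their transcripts in the deposited tables. GENCODE, used for the midpoints, has longer transcripts of *IRF1* and *IFIT3*, and places the sites near *IRF1* and those between *IFIT3* and *IFIT1* in introns of these. The sites of *IRF3* (23.4 kb), *ISG20* (12.3 kb), *IFIT3* (18.4 kb), *OASL* (23.4 kb) and the *IFITM* cluster (17.9 to 29.5 kb) were farther off.

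The central stretches of the sites nearest to *OAS2*, *TMEM173* and *DHX58* and of that near *IRF7* are given on the plus strand of hg19, with the 6-base letters of 1 arm of the PRE, TGTTCT or its reverse complement, in capitals, to show what PR-bound sequence near these genes looks like.
*OAS2* and *OAS3*, between the genes, chr12:113415729-113415829: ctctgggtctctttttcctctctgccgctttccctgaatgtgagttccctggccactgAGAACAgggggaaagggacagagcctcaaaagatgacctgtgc
*TMEM173*, upstream, chr5:138865859-138865959: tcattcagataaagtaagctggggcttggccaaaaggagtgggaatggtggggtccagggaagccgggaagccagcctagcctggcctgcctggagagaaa
*DHX58*, intron, chr17:40263198-40263298: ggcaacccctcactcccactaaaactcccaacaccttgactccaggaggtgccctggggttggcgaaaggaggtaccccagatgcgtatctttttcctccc
*IRF7*, in an intron of *PHRF1*, chr11:606071-606171: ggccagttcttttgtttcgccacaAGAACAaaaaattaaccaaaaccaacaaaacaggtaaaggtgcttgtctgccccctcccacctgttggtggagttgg
These letters were present near *OAS2* and *IRF7* and in neither of the other windows. Over their whole length 4 of the 34 sites held them (11.8%), beside 25.2% of the 11178 sites read from the genome. The full PRE letters were in 0 of the 34 and in 2.40% of all sites. *OAS2* and *TMEM173*, each with a site close upstream, had log2 ratios of −0.36 and 0.36, that is in opposite directions. Neither passed the threshold. The members that overlapped a site were *PARP9* (0.40), *IFIT5* (0.23), *DHX58* (0.04) and *IFI27* (−0.10). *TMEM173* and *IFI27* lay under the filter. Whether a nearby site goes with a direction of change was not tested.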

How the data were processed

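T47D RNA-seq (1 R5020 and 1 EtOH library) and PR ChIP-seq (1 library) were used. Input DNA was not analysed here. The authors mapped RNA-seq reads to hg19 (TopHat), dropped multiply mapped reads and deposited Cufflinks FPKM and coverage values for RefSeq transcripts. They aligned ChIP-seq reads with Bowtie 1.1.2, called sites with MACS against input, and deposited a score for each site. The 41138 transcripts were summed into 23287 symbols with Python 3.11.15 and pandas 2.3.3. FPKM values served for the comparisons with a pseudocount of 1, a filter of 1 FPKM and a 1.5-fold threshold. Coverage times length over 50 nt expressed depth only, since whole reads could not be recovered. The deposited FPKM intervals were not used. Sites were annotated with GENCODE on GRCh37, the assembly of hg19. The members and all gene lists were chosen with earlier results of these data known. Named are all retained members, members and pathway genes past 1.5-fold, members whose nearest site lay within 50 kb and IRF genes, and other values were added after they were seen. The 6-base letters were searched after the site sequences had been seen. Some named genes are not reported here. Calls and distances were tested on simulated data.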

Additional observations from a re-analysis of the deposited data

How the results depend on the processing

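With 1 library per condition no replicate could be left out, and depth limits the members under the filter most. No paired analysis was possible because each condition had 1 library. The 3 members at least 1.5-fold higher became 4 with a pseudocount of 0.1, without one, or with coverage in place of FPKM (scaled to its total or to a median log2 ratio of 0), and 1 with an FPKM of 1 or more required in both conditions. The 0 lower members became 1 with a pseudocount of 0.1 or with either scaling of coverage, and 2 without a pseudocount. The median log2 ratio of 0.06 lay between −0.04 (no filter) and 0.08, and was −0.02 with coverage scaled to its total but 0.06 with the other scaling, so its sign depends on the setting. Of pathway genes outside the set, the 1 higher became 2 with a pseudocount of 0.1, without one or with the highest transcript, and 0 with 1 FPKM required in both. The 2 lower became 4 without a filter, 0 at 2-fold, 1 with the highest transcript, 5 with coverage scaled to its total and 4 with the other scaling. The shares of all genes past the threshold were computed for the main setting only. Whether these shifts in the counts of members and pathway genes differ from those of all genes was therefore not tested. The 19 members with a PR binding site became 9 within 10 kb (20%, beside 27.4% of all symbols), 28 within 100 kb (62.2%, beside 57.1%), 18 within 50 kb of a transcript start (40.0%, beside 39.9%) and 2 with scores of 100 or more (4.44%, beside 14.2%). For single members, whether retained or not, the log2 ratio of a further 12 passed 1.5-fold under at least 1 alternative scale, and 0 of the 3 lost it. Of the 12, *HERC6* and *TMEM173* were higher in R5020. The others, *IRF3*, *IRF9*, *IFI27*, *IFIT1*, *IFIT2*, *IFIT3*, *IFITM3*, *ISG15*, *RSAD2* and *CMPK2*, were lower, and only *IRF3* and *IFITM3* among these were retained. Coverage and the log2 ratio without a pseudocount were chosen after seeing the data.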

Other observations

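The genes within 200 kb of the 3 members past the threshold were looked at after their values had been seen. Near *HERC5*, 4 of 5 neighbours were retained and 1 was at least 1.5-fold higher. This was *PPM1K*, the gene of a mitochondrial phosphatase, at 5.74 FPKM in EtOH and 9.21 in R5020 (log2 ratio 0.60), and *PIGY*, which acts in the synthesis of membrane anchors, was at 11.5 and 16.8 (0.51). *HERC6* and *HERC3*, the other HERC genes there, had log2 ratios of 0.36 and 0.22.

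Near *SP110*, 3 of 5 neighbours were retained and none passed the threshold. *SP140*, whose start adjoins that of the *SP110* transcript listed at 0 in both libraries, was at 0.005 in EtOH and 0.008 in R5020, and *SP140L* at 3.20 and 4.27 (log2 ratio 0.33).

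Near *TRIM22*, 4 of 19 neighbours were retained. *TRIM5*, which restricts retroviral capsids, was at 1.57 in EtOH and 2.59 in R5020 (log2 ratio 0.48), whereas *TRIM6* (0.743) and *TRIM34* (0.810) were listed at 0 in R5020. *TRIM34* shares exons with the readthrough transcript *TRIM6-TRIM34*, listed at 0 in both libraries, so their separate values are uncertain. The 1 neighbour at least 1.5-fold lower was the olfactory receptor gene *OR52N4*, at 1.04 and 0.286.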
